A study of Mus musculus with 11 samples.

Results

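The 43 genes described here act in mitosis and cytokinesis, and were read from a table of 46603 genes measured in whole liver. They were chosen by name, as G2/M regulators, mitotic kinases and genes of the kinetochore, spindle and cytokinesis, and each symbol matched 1 row of the table. The mice were leptin-deficient ob/ob animals, 5 to 6 weeks old when they began the AMLN diet, which is rich in fat, fructose and cholesterol and induces metabolic dysfunction-associated steatohepatitis (MASH). After 15 weeks of diet, 4 mice received INT-767 (10 mg/kg by gavage, once daily) and 7 received vehicle alone (0.5% carboxymethyl cellulose), both for 8 weeks and with the diet continued. Before treatment each animal had a liver biopsy, and those with fibrosis and steatosis were kept; how the sequenced mice were picked from larger arms is not given in the sources used here. INT-767 is a bile acid analog that activates the nuclear receptor FXR and the membrane receptor TGR5. All mice of both groups thus carried the ob/ob mutation and the diet, so that no lean or healthy liver enters any comparison. Polyadenylated RNA of terminal liver samples was sequenced, 1 library per mouse.

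A dividing cell enters mitosis when CDK1, bound to cyclin A or cyclin B, becomes active. Chromosomes then attach to the spindle through kinetochores, the spindle checkpoint holds the cell until all are attached, and the anaphase-promoting complex releases it by marking cyclin B and securin for destruction. The chromosomal passenger complex and the centralspindlin complex finish the division, from correcting attachments to cutting the daughter cells apart at the midbody. Most of these genes are silent in resting cells, where the DREAM complex represses them, and are switched on late in the cycle by the MYBL2-MuvB complex and FOXM1. Adult hepatocytes rarely divide, and in an inflamed liver dividing cells can also be macrophages, stellate cells, endothelial cells, cholangiocytes and lymphocytes.

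Levels are given as CPM, read counts scaled by library size and the TMM factors of edgeR. Total counts ranged from 7966963 to 15295230 with vehicle (n = 7) and from 7381211 to 16022459 with INT-767 (n = 4). At these depths 3 counts, the limit that a count of 0 allows, corresponded to between 0.187 and 0.406 CPM. The members were expressed at low levels: 32 of the 40 that could be tested had a vehicle mean under 5 CPM, and their counts summed over the 4 INT-767 mice ranged from 8 to 1259 with a median of 46.5. Such limits cover counting error alone, as PCR copies were not marked. The hepatocyte markers were abundant in every liver, with albumin (Alb) at 43000 CPM ± 4290 with vehicle (SD, n = 7) and 63800 CPM ± 19500 with INT-767 (SD, n = 4).

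Some libraries stood apart. Within each library, the log ratio of every gene to its mean over all libraries was correlated with transcript length across 13835 genes. Spearman's rho was negative in vehicle mice 1 and 7 (-0.181 and -0.23) and in INT-767 mice 2 and 4 (-0.295 and -0.313), and positive in the other 7 libraries (0.089 to 0.302). The same correlation with GC content was negative in all 4 INT-767 libraries (-0.059, -0.258, -0.159 and -0.241) and in vehicle mice 1 and 7 (-0.419 and -0.12), and positive in vehicle mice 2 to 6 (0.018 to 0.44). By GC content INT-767 mice 1 and 3 thus did not group with vehicle mice 2 to 6, as they did by length, and the libraries with a positive GC trend held vehicle mice alone. Across genes, the deviations of INT-767 mouse 4 from its group mean correlated with those of vehicle mice 1 and 7 at r = 0.702 and 0.665, and those of INT-767 mouse 2 at r = 0.428 and 0.38. Some pairs with a positive length trend reached similar values, such as r = 0.576 between INT-767 mouse 1 and vehicle mouse 5. Others did not: vehicle mouse 2 had r = -0.001 with INT-767 mouse 1 and -0.034 with INT-767 mouse 3. The r between INT-767 mouse 3 and vehicle mouse 3 was 0.148. The labels name no batch. Main results are therefore also given within the 7 libraries with a positive length trend (5 vehicle, 2 INT-767) and the 4 with a negative one (2 vehicle, 2 INT-767).

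The step medians of the mitosis genes were lower in the INT-767 livers at all 8 steps, from the proliferation mark to cytokinesis. Of the 40 members tested, 39 had a negative log2 fold change (INT-767 over vehicle), the exception being Spc24, and the median was -1.34, where the median of all 13880 tested genes was -0.01. A gene could pass the count filter through the livers of 1 group alone. Several members, such as Melk and Ccnb1 (at most 0.254 and 0.524 CPM with INT-767), passed through vehicle livers, so the filter could favour negative signs. Without it, the median was -1.36 over 43 members and -0.16 over all genes with a count. By edgeR's quasi-likelihood test, with Benjamini-Hochberg adjusted p under 0.05 over all tested genes, 15 members (37.5%) fell, against 649 of all tested genes (4.68%). No member rose, against 700 of all tested genes (5.04%). Without the count filter, 11 of 43 members (25.6%) fell, against 464 of 27306 genes (1.7%). At an unadjusted edgeR p under 0.05 the members counted 25 lower and 1 higher, against 15.6% and 17.4% of all tested genes. DESeq2 called 22 members lower and 1 higher, against 9.86% and 10.4% of all genes, and limma-voom called 12 lower and 0 higher, against 4.11% and 4.37%. The count of members that fell was 5 without INT-767 mouse 2 and 8 without vehicle mouse 5 or 6, and between 10 and 17 without any other mouse. The calls over all tested genes moved in the same fits: leaving out INT-767 mouse 2 gave 12.2% of the members tested and 0.767% of all genes, vehicle mouse 5 gave 21.6% and 2.11%, and vehicle mouse 6 gave 20.5% and 1.96%. The remaining fits gave between 24.4% and 43.6% of the members tested and between 2.76% and 9.86% of all genes. Shares lay closer together without vehicle mouse 1 (43.6% and 9.86%), vehicle mouse 7 (26.3% and 5.01%) or INT-767 mouse 3 (24.4% and 4.32%). In whole liver, fewer dividing cells and less of these RNAs per cell cannot be told apart.

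In 11 members every INT-767 liver lay below every vehicle liver, a separation that 506 of all tested genes (3.65%) showed. The opposite separation, found in 537 of all tested genes (3.87%), occurred in none of the members. Of the 11, 8 were among the members called by edgeR, and Kif20a, Ttk and Tpx2 were not called. Scaling by library size alone moved the median of all tested genes to -0.22 and that of the members to -1.57, and shifted all calls from 649 lower and 700 higher to 1026 lower and 332 higher. Upper-quartile scaling gave 812 lower and 467 higher. No member changed sign under these scalings.

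**Figure D1:**
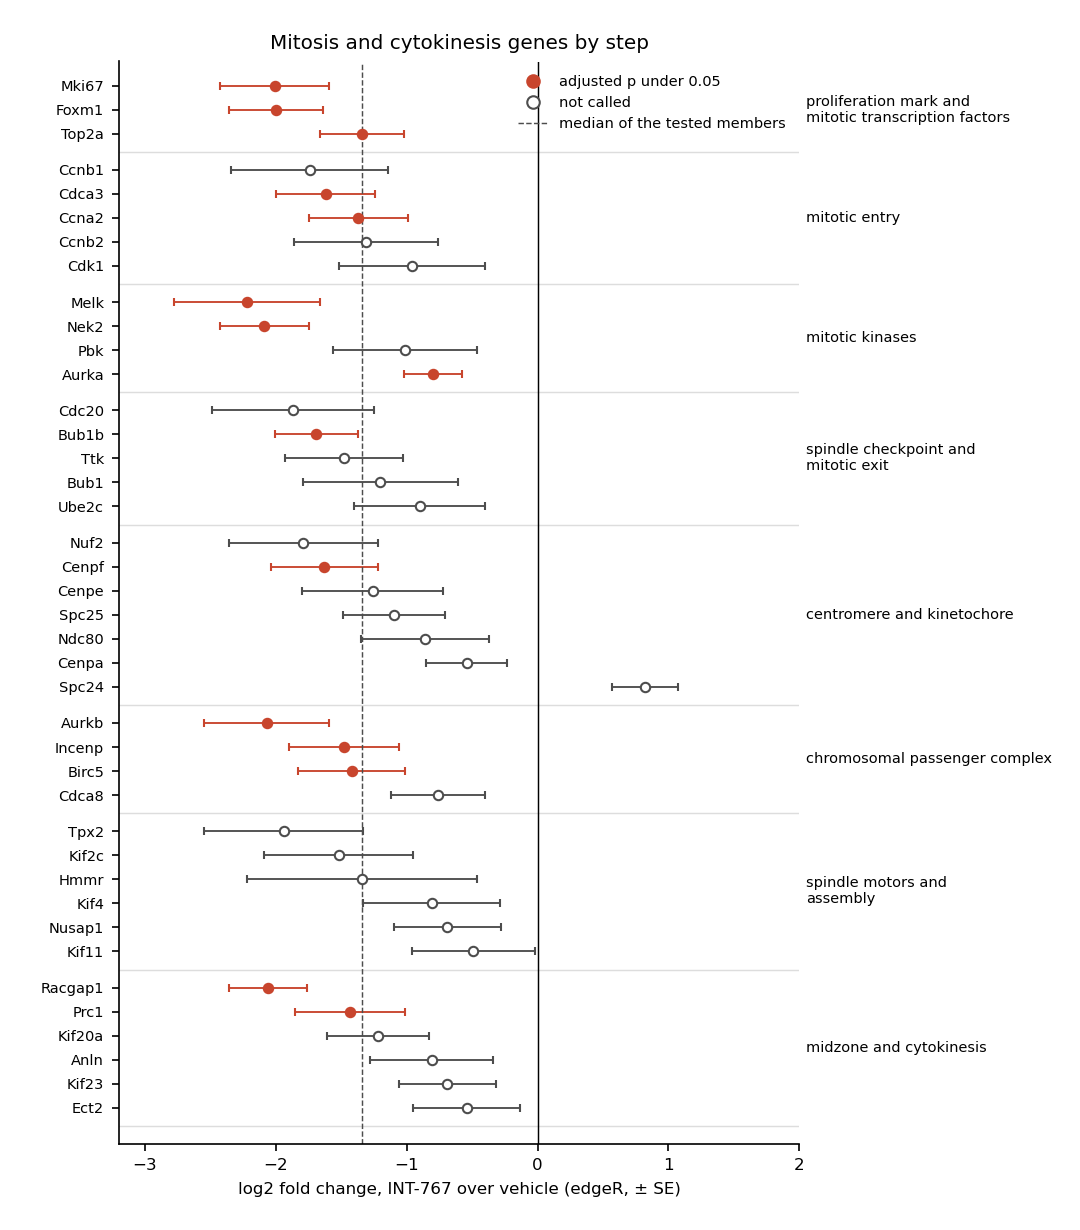
Log2 fold change of each of the 40 tested members (x axis, INT-767 over vehicle, edgeR estimate ± SE), grouped by step of mitosis along the y axis. Filled red points mark the 15 members with an adjusted p under 0.05. All points but Spc24 lie left of 0, and the dashed line marks the member median of -1.34.

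The direction was the same within each class of library. The member median was -1.11 within the 7 libraries with a positive trend and -1.83 within the 4 with a negative one. The edgeR fit within the first class called 22% of the members tested and 6.12% of all tested genes lower, and that within the second 15.4% and 0.693%. With the offset for GC content and length, the shares were 47.5% and 5.96%. With the sign of the trend as a term in the edgeR fit, an alternative chosen after seeing the data, 31 members fell, where 14.4% of all tested genes did, and 1 rose, where 14.7% did. In 18 members the INT-767 livers lay below the vehicle livers within both classes of library, as in 9.89% of all tested genes. Spc24 alone lay above within both classes, as did 11% of all tested genes.

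A common feature of the members that the choice by name did not use lies in their promoters. Late cell cycle genes are known to carry the cell cycle genes homology region (CHR), bound by DREAM and MuvB, and CCAAT boxes, bound by NF-Y. RefSeq promoters (GRCm38.p6, 250 bases before to 50 after the annotated start) were at hand for 34 of the 43 members. None was at hand for Aurkb, Ccna2, Cdc25c, Foxm1, Incenp, Kif20a, Pbk, Spc24 and Tpx2. A CHR written as TTTGAA or TTCGAA, on either strand, was present in 26 of the 34 (76.5%) and in 21.7% of 27025 genes. It was absent from Nek2, Melk and Birc5, which fell, from Nuf2, Nusap1, Cenpe and Ccnb1, not called, and from Mybl2, not tested. CCAAT on either strand was also present in 26 (76.5%), against 41.1% of all genes. Both together occurred in 23 members (67.6%) and in 8.61% of all genes. At least 2 CCAAT boxes occurred in 19 members (55.9%) and in 13.3% of all genes. These matches are descriptions of letters, not of binding. The 150 bases before the start (for Ect2, the first start listed) are shown for the 5 members that hold both motifs within them and have the highest mean CPM or the smallest p of their step. Top2a and Prc1 (at the second start listed), which fell, and Cdc20, which was not called, also hold both motifs in this stretch and are not shown. The sequences run 5′ to 3′ on the gene's strand, with CHR and CCAAT matches on either strand in capitals:
Mki67 (chr7:135716380-135716529, minus strand): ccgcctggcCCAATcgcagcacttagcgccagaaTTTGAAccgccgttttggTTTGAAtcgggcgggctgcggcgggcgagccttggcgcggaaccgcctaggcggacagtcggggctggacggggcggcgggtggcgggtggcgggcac
Cdk1 (chr10:69352913-69353062, minus strand): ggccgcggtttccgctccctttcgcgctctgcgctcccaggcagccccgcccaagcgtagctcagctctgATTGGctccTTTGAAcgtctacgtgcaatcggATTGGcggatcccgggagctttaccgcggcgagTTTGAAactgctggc
Ube2c (chr2:164769779-164769928, plus strand): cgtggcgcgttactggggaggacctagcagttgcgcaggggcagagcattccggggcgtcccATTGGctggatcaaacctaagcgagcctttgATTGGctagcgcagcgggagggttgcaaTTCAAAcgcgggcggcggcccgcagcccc
Kif11 (chr19:37376232-37376381, plus strand): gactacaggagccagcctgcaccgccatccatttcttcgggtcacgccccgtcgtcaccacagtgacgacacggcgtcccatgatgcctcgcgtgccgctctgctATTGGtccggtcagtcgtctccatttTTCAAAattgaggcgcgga
Ect2 (chr3:27153879-27154028, minus strand): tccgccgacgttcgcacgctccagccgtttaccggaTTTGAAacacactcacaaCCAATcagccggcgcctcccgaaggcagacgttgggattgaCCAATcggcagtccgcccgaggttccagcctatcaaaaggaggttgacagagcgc
Mki67, which fell, has a pair of CHR matches downstream of its CCAAT box, and Cdk1, which was not called, alternates both motifs. Ube2c, Kif11 and Ect2, not called either, carry 1 CHR and 1 to 2 CCAAT boxes in this stretch.

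The proliferation mark and the mitotic transcription factors had the lowest step median (log2 fold change -2.0), and all 3 tested members of this group of 4 fell. Mki67 (chr7:135689784-135716361), which encodes the Ki-67 protein of dividing cells, had a lowest level of 4.54 CPM, a median of 13.9 and a highest of 15.1 with vehicle, and 3.93, 0.69, 4.5 and 2.84 CPM in INT-767 mice 1 to 4. The groups did not overlap, although vehicle mouse 2 lay close to INT-767 mouse 3. Mki67 was 4.04-fold lower (log2 fold change -2.01 ± 0.42 (SE), adjusted p = 0.0146). Foxm1 (chr6:128362967-128376146), a transcription factor for G2/M genes, was between 1.24 and 3.41 CPM with vehicle (median 2.16) and at 0.825, 0.552, 0.422 and 0.299 CPM in the 4 INT-767 livers. Its groups were separate, and it fell by 2.0 on the log2 scale (SE 0.36, adjusted p = 0.00774). Top2a, the topoisomerase that untangles sister chromatids, fell by 1.34 (SE 0.32, adjusted p = 0.0245), again with no overlap. Mybl2, the MYB subunit that joins MuvB, was too low to be tested: it held 47 counts over 7 vehicle mice (0.175 to 1.13 CPM, median 0.581) and 5 counts over the 4 INT-767 mice (0.19, 0, 0.281 and 0 CPM). These ranges overlapped, since vehicle mice 1 and 7 were as low as the INT-767 mice with counts.

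**Figure D2:**
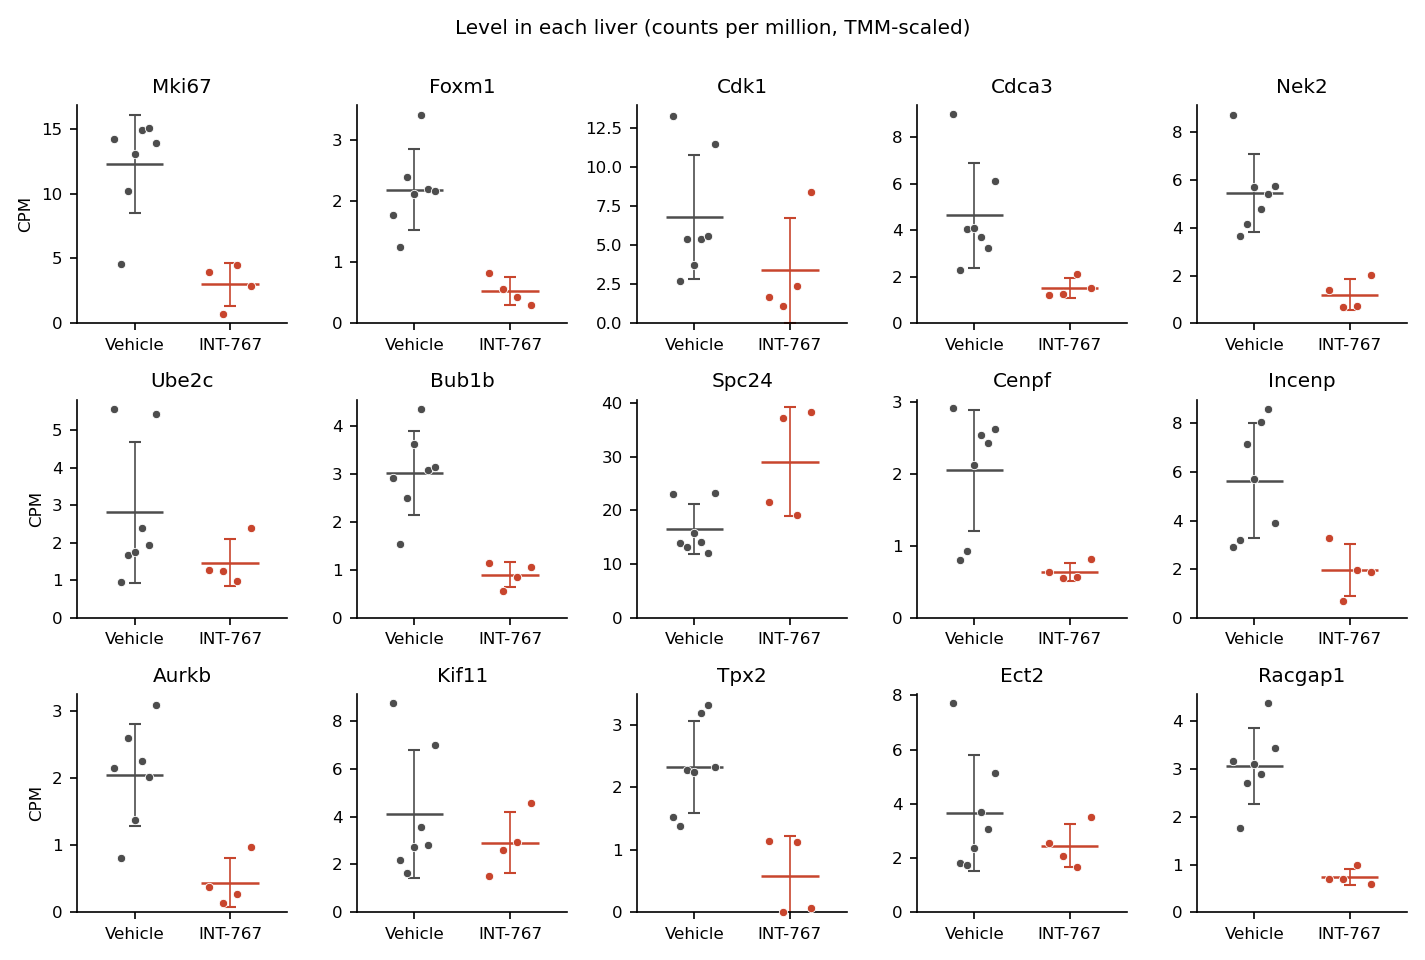
CPM (y axis, TMM-scaled, from 0) of 15 tested members, the highest in mean CPM and the smallest in p of each step, in 7 vehicle (grey) and 4 INT-767 (red) livers. Each point is 1 mouse in the order of its number, lines are means and bars SD, drawn down to 0 at most. Mki67, Foxm1, Cdca3, Nek2, Bub1b, Tpx2 and Racgap1 do not overlap between groups, and Spc24 is the 1 gene with a higher mean in INT-767 livers.

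Of the 6 genes of mitotic entry, 5 were tested, 2 fell and the median was -1.37. Cdca3 (chr6:124829547-124833701), an adaptor through which the SCF ubiquitin ligase removes the inhibitory kinase WEE1, was between 2.27 and 8.99 CPM with vehicle (median 4.05) and at 1.21, 1.24, 2.11 and 1.5 CPM with INT-767. The groups were separate, with vehicle mouse 2 only just above INT-767 mouse 3. Cdca3 was 3.08-fold lower (log2 fold change -1.62 ± 0.38, adjusted p = 0.023). Ccna2, cyclin A2, fell by 1.37 (SE 0.38, adjusted p = 0.0401). Cdk1 (chr10:69335146-69352938), the mitotic kinase itself, was between 2.71 and 13.3 CPM with vehicle (median 5.4) and at 1.71, 1.1, 2.39 and 8.38 CPM with INT-767. INT-767 mice 1, 2 and 3 were thus below all vehicle livers, while mouse 4 exceeded 5 of the 7, and the change was not called (-0.96 ± 0.56, adjusted p = 0.24). Within each class of library, however, all INT-767 livers were below the vehicle livers for Cdk1. With the trend as a term in edgeR its log2 fold change was -1.24 (adjusted p = 0.0239). Cdk1 was not called by DESeq2 (adjusted p = 0.176), limma-voom (adjusted p = 0.184) or edgeR with the GC and length offset (-0.72, adjusted p = 0.425). In all, 3 of its 24 alternatives called it, and its estimate ranged from -1.97 to -0.7 with 1 mouse left out. The B cyclins Ccnb1 (-1.74 ± 0.60, adjusted p = 0.0781) and Ccnb2 (-1.31 ± 0.55, adjusted p = 0.125), which activate CDK1, were not called. Cdc25c, the phosphatase that removes the inhibitory marks from CDK1, was not tested, with 28 counts over the vehicle mice (0.127 to 0.486 CPM, median 0.408) and 5 over the INT-767 mice (0.19, 0.138, 0.141 and 0 CPM), ranges that overlapped. Ccna2 was called in 3 of the 11 fits with 1 mouse left out (those without vehicle mouse 1, 2 or 3), and Cdca3 in all but the fit without INT-767 mouse 2, in which no gene of this step was called.

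Of the 5 members placed in the step of mitotic kinases, 4 were tested, 3 fell and the median was -1.55. The kinases Cdk1, Bub1, Ttk and Aurkb are counted in other steps. Nek2 (chr1:191821444-191833050), which drives centrosome separation, had the smallest p of this step. It was between 3.66 and 8.73 CPM with vehicle (median 5.43) and at 1.4, 0.69, 0.703 and 2.02 CPM with INT-767. The groups were well apart, with all INT-767 livers below the lowest vehicle liver, and Nek2 was 4.26-fold lower (log2 fold change -2.09 ± 0.34, adjusted p = 0.00474; exact two-sided Mann-Whitney p = 0.00606, the smallest that 4 against 7 mice allow). Melk, a kinase of proliferating cells, had the lowest fold change of all members (-2.22 ± 0.56, adjusted p = 0.0296), on 8 counts over the 4 INT-767 mice. With at most 0.254 CPM in any INT-767 liver, Melk passed the count filter through its vehicle livers alone. Its call and its rank thus depend in part on that filter. Aurka, the kinase of centrosomes and spindle poles, fell the least of the called members (-0.80 ± 0.22, adjusted p = 0.0414), with a vehicle range of 2.78 to 4.11 CPM. Pbk, a kinase active in mitosis, was not called (-1.01 ± 0.55, adjusted p = 0.209). Plk1 (chr7:122159439-122169873), which acts from mitotic entry to cytokinesis, was not tested. It held 88 counts with vehicle (0.519 to 2.02 CPM, median 0.886) and 13 with INT-767 (0.0634, 0, 0.281 and 0.748 CPM), and INT-767 mouse 4 lay within the vehicle range. With 1 mouse left out, Nek2 was called in all 11 fits, Aurka in 2 (without vehicle mouse 1 or INT-767 mouse 3) and Melk in 4 of the 7 in which it could be tested, not without INT-767 mouse 2, 3 or 4. The step median ranged from -0.81 without vehicle mouse 7 to -2.38 without INT-767 mouse 4, over the 3 to 5 kinases each fit tested.

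For the spindle checkpoint and mitotic exit, all 5 members were tested, 1 fell and the median was -1.48. Bub1b (chr2:118598211-118641591), which encodes the checkpoint protein BUBR1, was between 1.54 and 4.35 CPM with vehicle (median 3.08) and at 1.14, 0.552, 0.843 and 1.05 CPM with INT-767. The groups did not overlap, and Bub1b was 3.23-fold lower (log2 fold change -1.69 ± 0.32, adjusted p = 0.00907). The checkpoint kinase Ttk did not overlap between groups either, but was not called (-1.48 ± 0.45, adjusted p = 0.0555). Cdc20 (-1.87 ± 0.62, adjusted p = 0.071), the activator of the anaphase-promoting complex, and the checkpoint kinase Bub1 (-1.2 ± 0.59, adjusted p = 0.174) were not called. Ube2c (chr2:164769898-164778822), the ubiquitin-conjugating enzyme of the anaphase-promoting complex, was between 0.951 and 5.57 CPM with vehicle (median 1.94) and at 1.27, 1.24, 0.984 and 2.39 CPM with INT-767. All INT-767 values lay inside the vehicle range, in which mice 1 and 7 stood far above the others, and Ube2c was not called (-0.90 ± 0.50, adjusted p = 0.216). Of its exonic bases, 22.8% also lie in exons of Tnnc2 on the opposite strand, and the strand setting of the counting is not given in the sources used here.

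**Figure D3:**
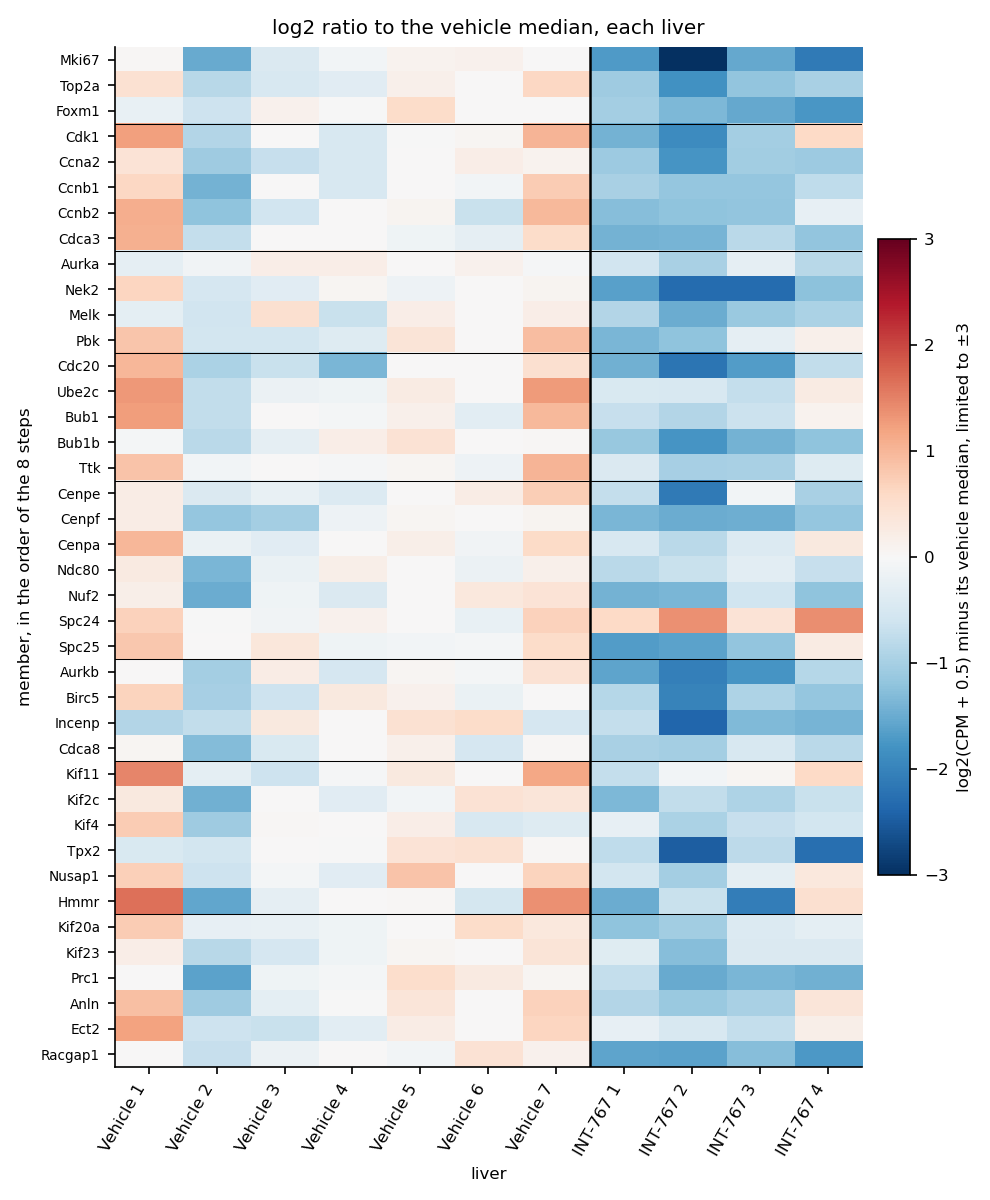
Log2(CPM + 0.5) of the 40 tested members (rows, in the order of the 8 steps, separated by thin lines) minus the vehicle median of the same gene, for each of the 11 livers (columns, colour scale limited to ±3). Most cells of the INT-767 columns are blue. Those of Spc24 are red, and other red cells gather in vehicle mice 1 and 7 and, for genes such as Cdk1 and Kif11, in INT-767 mouse 4.

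The centromere and kinetochore, where chromosomes meet spindle microtubules, held the only member with a positive fold change. All 7 members were tested, 1 fell and the median was -1.10. Cenpf (chr1:189640606-189688086), a large kinetochore protein of late G2 and mitosis, was between 0.805 and 2.91 CPM with vehicle (median 2.43) and at 0.634, 0.552, 0.562 and 0.823 CPM with INT-767. Vehicle mouse 2 lay just under INT-767 mouse 4, so that the groups overlapped by a narrow margin, and Cenpf fell by 1.63 (SE 0.41, adjusted p = 0.0299). It was not called when vehicle mouse 5 or 6 or INT-767 mouse 1, 2 or 3 was left out. Nuf2 (-1.79 ± 0.57, adjusted p = 0.0623), the kinetochore motor Cenpe (-1.26 ± 0.54, adjusted p = 0.127), Ndc80 (-0.86 ± 0.49, adjusted p = 0.22) and the centromeric histone Cenpa (-0.54 ± 0.31, adjusted p = 0.233) were not called.

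Spc24 (chr9:21755442-21760303) was that member. It encodes a subunit of the NDC80 complex and was between 12.1 and 23.3 CPM with vehicle (median 14.2) and at 21.6, 37.2, 19.1 and 38.4 CPM in the INT-767 livers. INT-767 mice 2 and 4 were above all vehicle livers, and INT-767 mice 1 and 3 were above 5 of the 7, exceeded by vehicle mice 1 and 7 alone. The log2 fold change was 0.82 ± 0.25, with an adjusted p of 0.0553 that missed the threshold. Within the libraries with a positive length trend, and within those with a negative one, both INT-767 livers were above all vehicle livers. With the trend as a term, Spc24 rose by 0.62 on the log2 scale (edgeR, adjusted p = 0.00131), and it was also called higher by DESeq2 (adjusted p = 0.0204), with the GC and length offset (adjusted p = 0.0392) and in 4 of the 11 fits that left out 1 mouse. It was not called by limma-voom (adjusted p = 0.0629), with library size alone (0.58, edgeR adjusted p = 0.113) or within the libraries with a negative trend (edgeR adjusted p = 0.141), and 8 of its 24 alternatives called it in all.

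SPC24, SPC25, NUF2 and NDC80 form the NDC80 complex, the microtubule coupler of the kinetochore, in which 1 copy of each joins the others. Per kilobase of exon (RPKM), the vehicle means were 6.42 for Spc24, 3.98 for Spc25, 0.226 for Nuf2 and 0.164 for Ndc80. These levels, which take the exons of all annotated transcripts as the length, place Spc24 and Spc25 first and second of the 43 members, whose median was 0.497. Spc25 (chr2:69193895-69206194), singled out after its values were seen, was between 9.59 and 19.1 CPM with vehicle (median 10.6) and at 2.98, 3.17, 4.36 and 12.7 CPM with INT-767. INT-767 mice 1, 2 and 3 lay far below every vehicle liver and mouse 4 lay inside their range, and Spc25 was not called (-1.10 ± 0.39, adjusted p = 0.0826). It was called lower with the trend as a term (-1.34, adjusted p = 0.00364), as it was by DESeq2, limma-voom and the fit with the GC and length offset, but in 1 of the 11 fits with 1 mouse left out, that without INT-767 mouse 4, and in 7 of its 24 alternatives in all. The mean RPKM of Spc24 was 11.3 and that of Spc25 1.82 in INT-767 livers. The difference between the changes of these subunits was not tested.

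**Figure D4:**
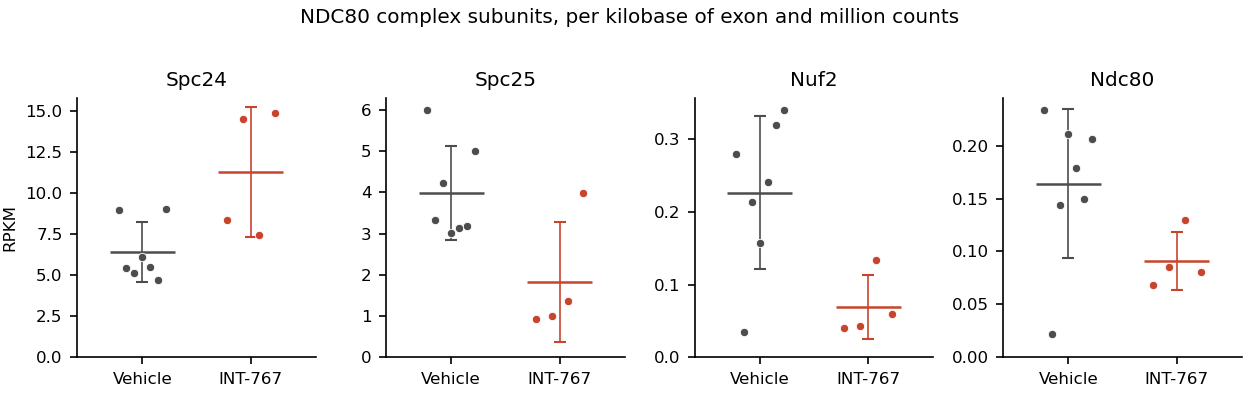
RPKM (y axis, each panel with its own scale from 0) of the 4 NDC80 complex subunits in 7 vehicle (grey) and 4 INT-767 (red) livers, with means and SD. Spc24 has the higher mean in INT-767 livers (11.3 against 6.42), the other subunits the lower one, and Nuf2 and Ndc80 are more than an order of magnitude below Spc24.

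In the chromosomal passenger complex, which corrects faulty attachments and later directs cytokinesis, 3 of 4 members fell and the median was -1.45. Aurkb (chr11:69045647-69051664), its kinase, was between 0.805 and 3.09 CPM with vehicle (median 2.15) and at 0.381, 0.138, 0.281 and 0.972 CPM with INT-767. Only vehicle mouse 2 lay below INT-767 mouse 4, and Aurkb was 4.18-fold lower (log2 fold change -2.07 ± 0.48, adjusted p = 0.0237). Incenp (chr19:9872296-9899551), the scaffold of the complex, was between 2.91 and 8.58 CPM with vehicle (median 5.73) and at 3.3, 0.69, 1.97 and 1.87 CPM with INT-767. INT-767 mouse 1 lay above vehicle mice 1 and 2, and Incenp fell by 1.48 (SE 0.42, adjusted p = 0.0436). Birc5, the survivin subunit, also fell (-1.42 ± 0.41, adjusted p = 0.0491), and borealin, encoded by Cdca8, was not called (-0.76 ± 0.36, adjusted p = 0.155). Aurkb lost its call only when INT-767 mouse 2 was left out, where no subunit was called. Incenp and Birc5 lost theirs in 7 and 8 of the 11 such fits, both without any of vehicle mice 3 to 6 or INT-767 mice 2 to 4 and Birc5 also without vehicle mouse 7.

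None of the 6 genes of spindle motors and assembly passed the threshold, although all had negative fold changes (median -1.07) and 2 had an unadjusted edgeR p under 0.05. Tpx2 (chr2:152847964-152895321), which activates Aurora A on the spindle, was between 1.39 and 3.32 CPM with vehicle (median 2.28) and at 1.14, 0, 1.12 and 0.0748 CPM with INT-767. The groups were separate, with INT-767 mice 2 and 4 near 0 and the other pair close below the vehicle range, and Tpx2 was not called (-1.94 ± 0.61, adjusted p = 0.0619). Kif11 (chr19:37376403-37421859), the motor that pushes spindle poles apart, was between 1.66 and 8.73 CPM with vehicle (median 2.83) and at 1.52, 2.62, 2.95 and 4.56 CPM with INT-767. Here the groups overlapped almost fully (-0.49 ± 0.47, adjusted p = 0.462), the negative estimate nearest to 0 among the members. The microtubule depolymerase Kif2c (-1.52 ± 0.57), Hmmr (-1.34 ± 0.88), the chromokinesin Kif4 (-0.81 ± 0.52) and the microtubule binder Nusap1 (-0.69 ± 0.41) were not called, with adjusted p between 0.0965 and 0.29.

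Of the 6 genes of the midzone and cytokinesis, 2 fell, and the median was -1.02. Racgap1 (chr15:99620496-99651656), the GTPase-activating subunit of centralspindlin, had the smallest p of all members. It was between 1.76 and 4.37 CPM with vehicle (median 3.11) and at 0.698, 0.69, 0.984 and 0.598 CPM with INT-767. The 4 INT-767 livers lay close together and far below the vehicle livers, and Racgap1 was 4.17-fold lower (log2 fold change -2.06 ± 0.30, adjusted p = 0.00329). Its motor partner in centralspindlin, Kif23, was not called (-0.69 ± 0.37, adjusted p = 0.207). Prc1, the microtubule bundler of the midzone, fell by 1.43 (SE 0.42, adjusted p = 0.0493), a call kept in 3 of the 11 fits with 1 mouse left out (vehicle mouse 1 or 2 or INT-767 mouse 1), where Racgap1 kept its call in all. The midzone motor Kif20a did not overlap between groups but was not called (-1.22 ± 0.39, adjusted p = 0.0619), and 29.3% of its exonic bases also lie in exons of Cdc23 on the opposite strand. Ect2 (chr3:27097222-27153878), the exchange factor that RACGAP1 recruits to activate RhoA, was between 1.76 and 7.72 CPM with vehicle (median 3.08) and at 2.54, 2.07, 1.69 and 3.52 CPM with INT-767. Its groups overlapped (-0.54 ± 0.41, adjusted p = 0.354), as did those of the contractile ring protein Anln (-0.81 ± 0.47, adjusted p = 0.234).

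The livers differed in how strongly they followed this pattern. Summed over the 42 members other than Spc24, the level was 69 CPM in the lowest vehicle liver (mouse 2), 134.2 at the median and 201 in the highest (mouse 1), and 51.4, 33.4, 55.6 and 83.9 CPM in INT-767 mice 1 to 4. The groups thus overlapped through vehicle mouse 2 and INT-767 mouse 4. Within the libraries with a positive length trend the mean sum was 115 CPM with vehicle and 53.5 with INT-767, and within those with a negative trend 191 and 58.7. With Spc24 included, the sum was between 82.98 and 224 CPM with vehicle and at 72.9, 70.6, 74.8 and 122.3 CPM with INT-767. Over the 40 tested members, log2(CPM + 0.5) minus the vehicle median had a median of -0.978, -1.3, -0.951 and -0.742 in INT-767 mice 1 to 4. In vehicle mice this median ranged from -0.781 (mouse 2) to 0.627 (mouse 1). In 21 members vehicle mice 1 and 7 were the highest vehicle livers, and in 18 of these INT-767 mouse 4 was also the highest of its group, among them Cdk1, Ccnb1, Ccnb2, Cdc20, Ube2c, Bub1, Hmmr, Kif11, Anln and Ect2. Of these 18, 3 were called lower (Top2a, Nek2 and Cenpf). How many of all tested genes show this order of livers is not given here. Across genes, the deviations of INT-767 mouse 4 also correlated with those of vehicle mice 1 and 7 (r = 0.702 and 0.665).

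Other lists of the same pathway had medians nearer to 0. Of 55 other mitosis genes, 45 were tested, 9 fell (20%), 1 rose (2.22%) and the median was -0.62. Of all tested genes, 4.68% fell and 5.04% rose. Ncaph, a subunit of condensin I, was between 0.878 and 2.98 CPM with vehicle (median 2.12) and at 0.698, 0.414, 0.562 and 0.748 CPM with INT-767, without overlap (-1.71 ± 0.35, adjusted p = 0.0138). Kifc1, a minus-end spindle motor, fell by 2.66 (SE 0.55, adjusted p = 0.0144), on levels of at most 0.381 CPM in the INT-767 livers. Cdc25b, a phosphatase that starts CDK1 activation, fell by 1.14 (SE 0.25, adjusted p = 0.018). Ccnf, a cyclin F-box protein that marks targets for destruction in G2, rose in contrast: it was between 6.64 and 11.7 CPM with vehicle (median 10.6) and at 16.1, 18.1, 11.9 and 16.5 CPM with INT-767, with no overlap (0.63 ± 0.18, adjusted p = 0.0417). The rise of Ccnf was called in 3 of the 11 fits with 1 mouse left out (vehicle mouse 1 or 7 or INT-767 mouse 3), and not with upper-quartile or library size scaling. Without INT-767 mouse 2, 1 gene of this list was called lower in place of 9, while the share of all genes went from 4.68% to 0.767%. The count was 4 without vehicle mouse 3 or 5 (2.76% and 2.11% of all genes). It was 5 without vehicle mouse 4 or 6 (2.84% and 1.96% of all genes).

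Of 40 DNA replication genes, 38 were tested and the median was -0.53. In this list 8 fell (21.1%, against 4.68% of all tested genes) and none rose (against 5.04%). Uhrf1, which keeps DNA methylation through replication, had a lowest level of 2.41 CPM, a median of 4.77 and a highest of 7.04 with vehicle, and 0.761, 1.1, 1.26 and 1.27 CPM with INT-767. Its groups lay far apart (-2.21 ± 0.32, adjusted p = 0.00329). Mcm2, a subunit of the replicative helicase, fell by 1.2 (SE 0.22, adjusted p = 0.00831), and the licensing factor Cdt1 by 1.30 (SE 0.25, adjusted p = 0.00912). Neither overlapped between groups. Helicase subunits Mcm3, Mcm4, Mcm5 and Mcm6 and the polymerase Pole made up the other 5. The count was 3 without INT-767 mouse 2 (0.767% of all genes) and 5 without vehicle mouse 6 (1.96% of all genes).

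Upstream of DNA replication, the list of G1 cyclins and kinases, CDK inhibitors and DREAM subunits had a median of 0.00 over 25 tested genes of 27. In this list 4 fell (16%, against 4.68% of all tested genes) and none rose (against 5.04%). Ccnd2, cyclin D2, was between 17.9 and 27.8 CPM with vehicle (median 23.7) and at 14.5, 6.48, 10.7 and 9.43 CPM with INT-767, without overlap (-1.13 ± 0.21, adjusted p = 0.00944). Ccnd3, cyclin D3, fell by 0.75 (SE 0.16, adjusted p = 0.0174) and their kinase Cdk4 by 0.46 (SE 0.13, adjusted p = 0.0457). Cdk6, the other kinase of D cyclins and named after its value was seen, fell by 0.76 (SE 0.22, adjusted p = 0.0491). With 1 mouse left out, Ccnd2 was called in all 11 fits and Ccnd3 in 10, but Cdk6 in 4 and Cdk4 in 2. Ccnd1, cyclin D1, was at 78.2 CPM ± 23.2 with vehicle (SD, n = 7) and 94.9 CPM ± 32.9 with INT-767 (SD, n = 4), and was not called (0.28 ± 0.25, adjusted p = 0.44). The CDK inhibitors Cdkn1a (0.01 ± 0.54, adjusted p = 0.986) and Cdkn1b (0.69 ± 0.27, adjusted p = 0.105) and the DREAM subunit Rbl1 (-0.42 ± 0.21, adjusted p = 0.177) were not called. The estimate for Cdkn1a rests on vehicle mouse 3, which was at 175 CPM where the other vehicle livers were at 21.5 to 38.1 and the INT-767 livers at 66.6, 50.8, 49 and 36.2 CPM; without that mouse it was 0.79 (adjusted p = 0.0512). Cdkn1b was called higher in 1 of the 11 fits with 1 mouse left out, that without vehicle mouse 1 (adjusted p = 0.0424). Leaving out INT-767 mouse 2 reduced the count of 4 to 1 (0.767% of all genes). The count was 2 without INT-767 mouse 4 or any of vehicle mice 2 to 6 (between 1.96% and 4.1% of all genes).

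Markers of the cell types that could hold these transcripts were read from the same fit, in which 4.68% of all tested genes fell and 5.04% rose. Macrophage markers had a median log2 fold change of -0.63, and 3 of 11 fell: Csf1r (-1.14 ± 0.19, adjusted p = 0.00498), Cd68 (-1.16 ± 0.22, adjusted p = 0.00944) and Cd9 (-0.76 ± 0.16, adjusted p = 0.0154). Their most abundant gene, Cd5l, was at 219 CPM ± 34.7 with vehicle (SD, n = 7) and 215 CPM ± 127 with INT-767 (SD, n = 4). Their summed level was 611 to 836 CPM with vehicle and 425, 429, 348 and 832 CPM with INT-767, so that INT-767 mouse 4, which also held the highest mitosis sum of its group, was near the top of the vehicle range. Stellate cell and myofibroblast markers fell in 3 of 10 cases (median -0.97): Col1a2 (-2.35 ± 0.57, adjusted p = 0.0272), Col1a1 (-2.96 ± 0.74, adjusted p = 0.0297) and Pdgfrb (-1.31 ± 0.33, adjusted p = 0.0302). Their sum, led by Col3a1, was 355 to 1291 CPM with vehicle and 231, 112, 247 and 333 CPM with INT-767, without overlap. Of 8 endothelial markers 1 fell, Vwf (-1.31 ± 0.35, adjusted p = 0.036, list median -0.37), and the most abundant, Stab2, was not called (-0.97 ± 0.39, adjusted p = 0.11). Their sum was 154 to 306 CPM with vehicle and 205, 148, 171 and 133 CPM with INT-767.

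None of the 6 cholangiocyte markers was called (median -0.62). Their sum, almost all Spp1, was 734 to 851 CPM in vehicle mice 2 to 6, 1933 in vehicle mouse 1 and 1503 in vehicle mouse 7, and 356, 588, 809 and 1357 CPM in INT-767 mice 1 to 4. These 3 livers with the highest sums were also the highest 3 for Cdk1 and Kif11, genes singled out here after their values were seen, and all of them are among the 4 libraries with a negative length trend. None of the 9 hepatocyte markers found in the table, of 10 listed, was called either (median 0.52). Their sum was 63810 to 84250 CPM with vehicle and 108400, 121500, 97990 and 83530 CPM with INT-767. Of 5 tested T and NK cell markers (median -0.77, most abundant Lck), 5 B and plasma cell markers (median -0.19, most abundant Jchain), 2 neutrophil markers (median 0.38, most abundant S100a9) and 6 erythroid and progenitor markers (median 0.21, most abundant Hbb-bs), none was called. INT-767 mouse 4 had the highest neutrophil sum (26.6 CPM, where vehicle mice had 7.03 to 12.2) and the highest erythroid sum (370 CPM, where vehicle mice had 121 to 294). T and NK cell sums were 4.83 to 11 CPM with vehicle and 5.01 to 7.41 CPM with INT-767, and B and plasma cell sums 14.7 to 42.5 and 12.4 to 35.3 CPM. Several defining markers were near 0: Gata1 held 1 count with vehicle and none with INT-767, and Ly6g held 5 counts and 1. No marker was at 0 in all mice. Of the marker calls, those of Csf1r and Cd68 held in all 11 fits with 1 mouse left out, Cd9 in 10, Col1a2 in 7, Col1a1 and Pdgfrb in 5 and Vwf in 4. Only those of Csf1r and Cd68 held without INT-767 mouse 2, a fit in which 0.767% of all genes fell. The part of these cell types in the lower mitosis levels was not tested.

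**Figure D5:**
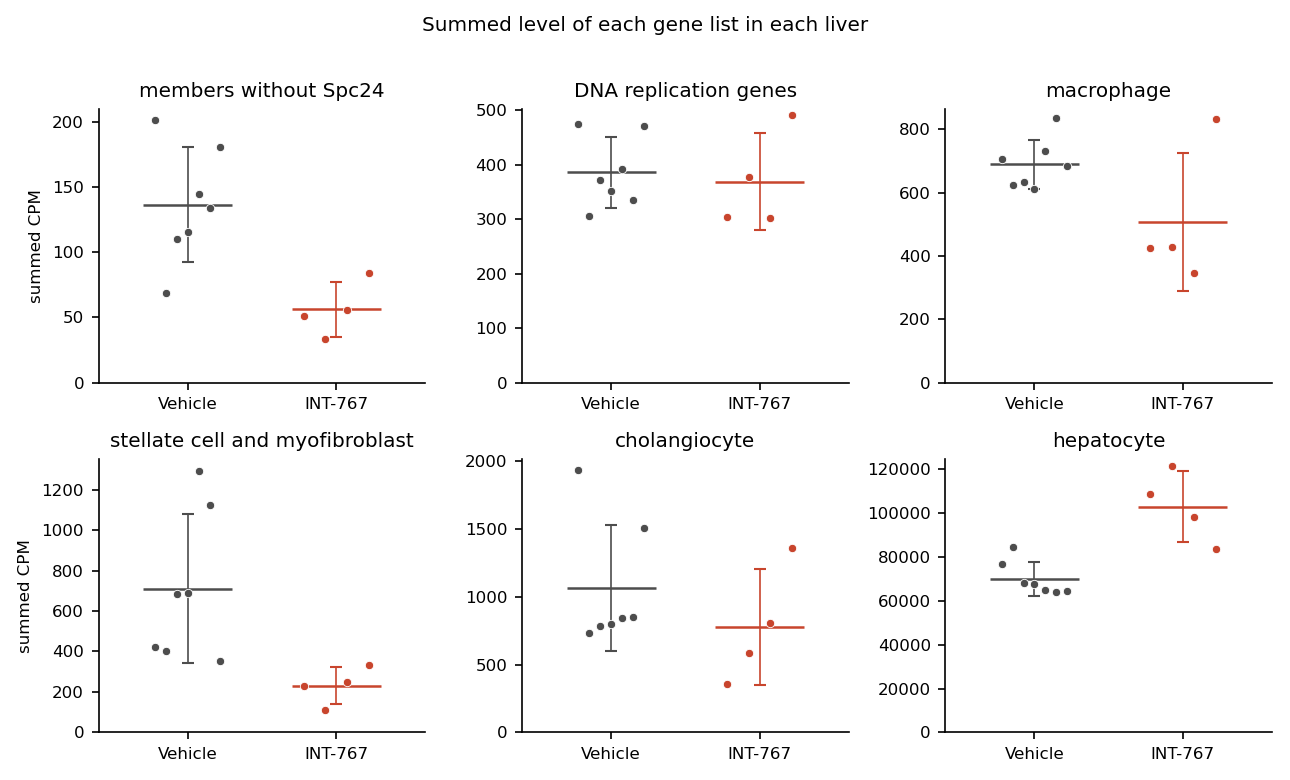
Summed CPM (y axis, each panel with its own scale from 0) of 6 gene lists in 7 vehicle (grey) and 4 INT-767 (red) livers, with means and SD. The members without Spc24 overlap between groups only through vehicle mouse 2 (69 CPM) and INT-767 mouse 4 (83.9 CPM), which is also high in the macrophage (832 CPM) and cholangiocyte (1357 CPM) panels.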

How the data were processed

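The authors sequenced polyadenylated liver RNA (TruSeq stranded mRNA kit, 75 cycles) and deposited 1 table of raw read counts per gene. Reads were aligned to GRCm38 with STAR, given as version 2.4.0 in the submitters' processing notes and 2.5.2a in the supplementary methods, with Ensembl 84. The counting program and strand setting were not given in the sources used here. Members and lists were chosen with earlier results of these data known. Genes with low counts were removed by filterByExpr, leaving 13880 of 46603 (27306 had any count). INT-767 (n = 4) and vehicle (n = 7) were compared over all of these with edgeR 4.0.16 (TMM, robust quasi-likelihood test, Benjamini-Hochberg adjustment, threshold 0.05) in R 4.3.3. For single members, an exact Mann-Whitney test (two-sided) enumerated all 330 assignments, with 0.00606 as the smallest p possible. The p-values measure the spread between these mice. DESeq2 1.42.0 and limma 3.58.1 (voom) served as alternatives, with other scalings, filters, a GC and length offset, a replicate block and each mouse left out. The edgeR, voom and DESeq2 fits were first tested on simulated data. RPKM used exon lengths of GENCODE M21, from which coordinates (GRCm38) also come.

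Within each step, the member with the highest mean CPM and that with the smallest p are given liver by liver, as are members called higher or not tested. From each pathway list the 3 called genes with the smallest p per direction are named, and from each cell type list its most abundant gene and called genes. Other named genes are given by counts or in short form. Replicate numbers were not used to pair the mice in the main fit. No pair of libraries held identical values.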

Additional observations from a re-analysis of the deposited data

Results flagged for a closer look

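Of 112 groups of values examined, 10 held a liver that stood apart from the rest of its group, by the gap to its nearest neighbour relative to the range of the group. For independent values with a normal spread, chance alone gives about 1 in 20 such groups. These groups share the same livers and some overlap, so that rate need not hold here. INT-767 mouse 4 was high in 5 of them: Spc25 at 12.7 CPM (group median 3.77), Anln at 3.59 CPM (1.17), Ccnb2 at 2.32 CPM (0.975), all members summed at 122 CPM (73.9) and the macrophage markers summed at 832 CPM (427). INT-767 mouse 2 was low for Ccna2 at 0.552 CPM (1.21) and Kif23 at 0.414 CPM (1.12), and INT-767 mouse 1 was high for Prc1 at 2.03 CPM (1.08). Among vehicle mice, mouse 1 was high for Nek2 at 8.73 CPM (5.43), and mouse 2 was low for Ndc80 at 0.146 CPM (1.16). INT-767 mice 2 and 4 and vehicle mouse 1 were among the libraries with a negative length trend. No cause was tested.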

How the results depend on the processing

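No member turned its direction in any of 914 pairs of member and alternative: 755 stayed on the same side of the threshold, 105 lost it and 54 gained it. Genes lower and higher with INT-767 numbered 1026 and 332 by library size alone, 1368 and 1443 with DESeq2, 94 and 130 within libraries of negative length trend, 2000 and 2040 with the trend as a term, and 87 and 158 at an adjusted p under 0.01; the GC and length offset gave 1067 higher. Members lower numbered 3 of the 7 that reached a mean count of at least 50 (520 of 10589 genes, 4.91%), 9 of 41 and 6 of 39 within libraries of positive (879 of 14363 genes, 6.12%) and negative trend (0.693% of genes), 31 of 40 with the trend term (14.4% of genes) and 4 of 40 at an adjusted p under 0.01 (87 of 13880 genes). Spc24 was the 1 member called higher with DESeq2, the offset, the positive trend libraries and the trend term. The member median was -1.83 within negative trend libraries. The 3 alternatives based on the trend were chosen after seeing the data. Beyond the fewer libraries or genes that enter some of these fits, causes were not tested.

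With 1 mouse left out, genes lower ranged from 110 to 1370, genes higher from 164 to 1906, members lower from 5 to 17, members higher from 0 to 1 and the member median from -1.63 to -1.20. Nek2, Racgap1, Mki67, Foxm1 and Bub1b, 5 of the 15 called members, were called in all of these fits. Same-numbered mice had deviations correlated at -0.69, 0.215, 0.148 and -0.482, which showed no pairing by number. The length trends of the libraries enter these values, so a weaker pairing could not be seen in them. With the number as a replicate block, edgeR called 0 genes lower, 0 higher and 0 members. In that fit the member median was -1.12, where the median of all tested genes was -0.02. Counts over the INT-767 mice were as low as 8, for Melk; whether depth limits the members' calls was not tested.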
